A study of Mus musculus
Rattus norvegicus and Rattus norvegicus and Mus musculus with 18 samples.

Results

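When oxygen is short, cells raise a group of genes under the control of the hypoxia-inducible factors, and the part of this response that lies outside the glycolytic chain is described here in 4T1 mammary tumors growing in rats. The members are listed by gene name. The rule uses no measured value, but the members were chosen with earlier results of these data known. They comprise 40 names that stand for 37 genes, since Car9, Car12 and Ero1l each have an alternative name. Of these, 32 were in the table of 17672 mouse genes, which come from the tumor cells, and 37 in the table of 14876 rat genes, which come from the host. Mouse Epas1, Lox, Loxl2, Rora and Ppp1r3c were not analysed here in the tumor libraries. All 32 mouse and all 37 rat members found passed the filter on low values used for the tests.

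As background, the alpha subunits Hif1a and Epas1 are made continuously. In the presence of oxygen the prolyl hydroxylases Egln1 and Egln3 mark them for the ubiquitin ligase subunit Vhl and for breakdown, and in hypoxia they accumulate, pair with Arnt and switch on their targets. Solid tumors outgrow their vessels, and their poorly perfused centers are a classic site of this response. Its targets outside glycolysis export acid, take up glucose, store it as glycogen, remove mitochondria, fold and crosslink collagen, demethylate histones and signal to vessels.

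Libraries of polyA RNA were sequenced from tissue taken 27 days after 4T1 cells, an aggressive mouse mammary carcinoma line, were placed in the mammary fat pad of SRG rats, hosts that lack mature T, B and natural killer cells through loss of Rag2 and Il2rg. The labels give every sample as wild type and untreated. The groups were the necrotic core of the primary tumor (5 libraries), the lung of tumor-bearing rats (5), the non-necrotic rim of the same tumors as the cores (5), and, as single-species references, a pellet of cultured 4T1 cells (1, mouse) and mammary gland of rats without a tumor (2, rat). Core and rim came from Rat3867, Rat3869, Rat3875, Rat3876 and Rat3877. The lungs came from the last 4 of these and from Rat3789, of which no core or rim was used. Core and rim were separated by dissection, and RNA from all cells of a piece was pooled, so fewer cells of a type and less RNA per cell cannot be told apart. Each tumor library holds reads of both species, and mouse transcripts therefore stand for the 4T1 cells and rat transcripts for host cells of all kinds.

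Depth was 15346400 to 26669410 reads on mouse genes and 3146720 to 10015352 on rat genes per library, lowest for rat genes of the core (3146720 to 4221679). Values are library-scaled counts (CPM) on the authors' scale, which multiplies reads plus 0.5 by a constant of each library. Mouse reads made up 83.8 to 87.4% of the reads on genes in cores, 64.0 to 75.3% in lungs and 65.7 to 81.3% in rims. The mitochondrial share of mouse reads was 1.83 to 2.57% in cores and 1.65 to 1.91% in rims, that of rat reads 2.58 to 3.25% in cores and 2.05 to 2.61% in rims, and its part in the results was not tested. The scale was set separately for each species, so levels are compared only within a gene. The tumor cells carried 9 of 9 epithelial markers in the table, summing to 2458 to 4022 CPM in cores, 1949 to 2879 CPM in lungs and 4227 to 5447 CPM in rims, although the basal keratin Krt5 stayed under 1 CPM in every library. The library labelled lung from Rat3789 held few lung epithelium transcripts: 8 of 8 such rat markers summed to 85.1 CPM there, against 9217 to 16528 CPM in the other 4 lungs, so lung results are given with and without it. The rims of Rat3876 and Rat3877 stood apart in host transcripts, with 54.0 and 58.1 CPM of rat Krt8 against 2.72 to 6.04 CPM in the other rims, and 117 and 32.6 CPM of the fat gene Adipoq against 2.34 to 5.94 CPM. Values of a group are listed in the order Rat3867, Rat3869, Rat3875, Rat3876, Rat3877, and for lungs in the order Rat3869, Rat3875, Rat3876, Rat3877, Rat3789.

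In the tumor cells, 16 of the 32 members were higher in the core than in the rim and 0 were lower, by limma with the rat as a block and Benjamini-Hochberg adjusted p under 0.05 over all 13070 mouse genes tested. Over all these genes 19.8% were called, 10.1% as higher and 9.63% as lower. The members' median log2 difference was 0.60, against 0.01 for all genes tested. The difference was above 0 for 31 of the 32, and 23 had an unadjusted p under 0.05, none of them lower in the core. EdgeR, limma-voom and DESeq2 on the recovered reads called 16, 16 and 17 members, again 0 of them lower, and 2536, 2609 and 3036 of all genes. The called members were 3 of 3 genes of acid and glucose transport, 4 of 5 of collagen and protein folding, 3 of 4 of mitochondria, 3 of 6 secreted or stress genes, 2 of 6 of glucose and nucleotide metabolism and 1 of 4 oxygen sensors and factors, while the 4 genes of transcription and chromatin were not called.

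**Figure D1:**
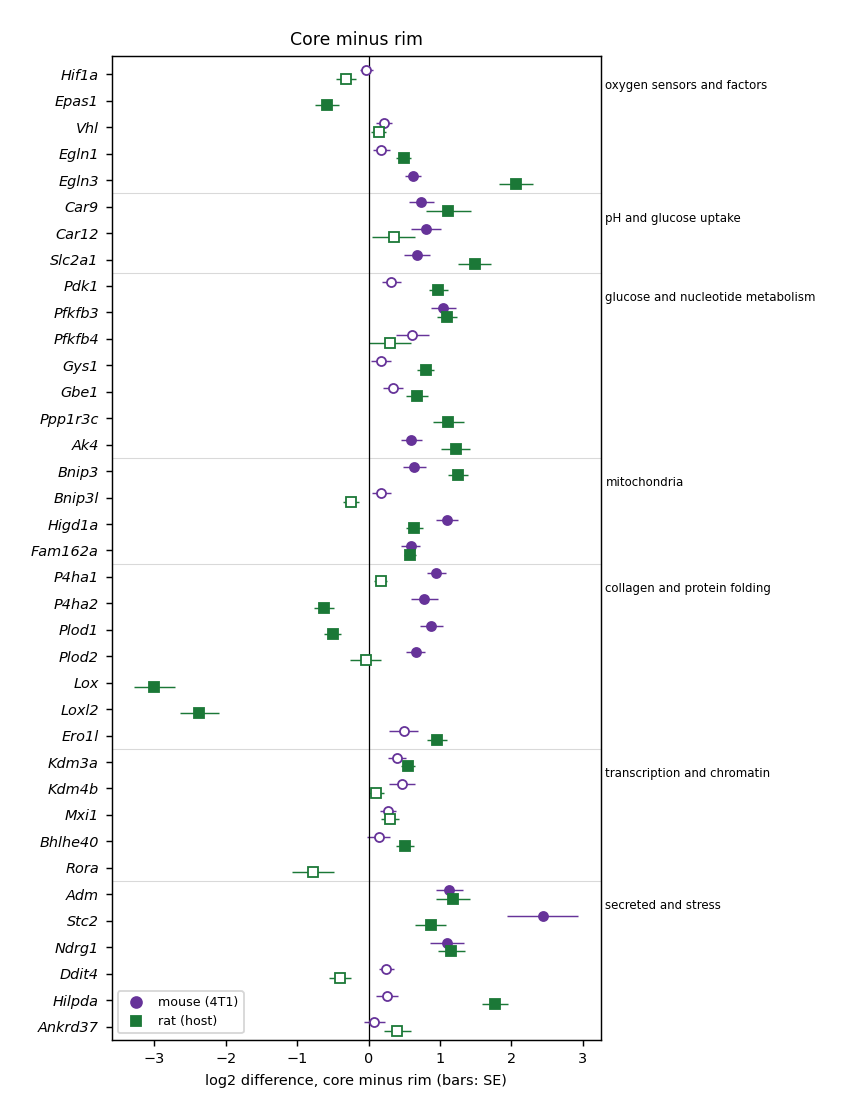
Log2 difference between core and rim (core minus rim, limma, n = 5 rats) for each member, grouped by role, in mouse (circles) and rat (squares) transcripts. Filled symbols passed the adjusted p threshold of 0.05, open symbols did not, and bars are SE. Called mouse members lie to the right of 0, while the called rat members include Lox at -3.00 and Egln3 at 2.07.

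Of the oxygen-sensing genes of the tumor cells, only Egln3 was called between core and rim. Mouse Hif1a, which encodes the factor itself, had 225, 176, 185, 206 and 203 CPM in cores, against 197, 197, 222, 197 and 201 CPM in rims (log2 difference -0.03, SE 0.09, adjusted p = 0.863). The groups overlapped, and 2 of the 5 rats, Rat3869 and Rat3875, had the higher value in the rim. Mouse Vhl, the recognition subunit of the ligase that clears the factors, read 25.7, 28.6, 24.7, 23.5 and 23.5 CPM in cores and 21, 22.3, 21, 22.7 and 20.7 CPM in rims (0.22, SE 0.11, adjusted p = 0.184), a small difference in which the groups did not overlap but which missed the threshold. Mouse Egln1, the main oxygen sensor, was at 182, 156, 272, 193 and 157 CPM in cores and 142, 179, 187, 191 and 138 CPM in rims (0.18, SE 0.12, adjusted p = 0.297). From the reads that map to mouse Egln1 in pure rat gland, 4.42% of its reads in cores and 8.43% in rims (medians) may be of rat origin. Mouse Egln3, a hydroxylase that is itself a target of the factors, rose in the core: 357, 269, 406, 378 and 444 CPM in cores, against 198, 226, 307, 224 and 246 CPM in rims (0.62, SE 0.11, adjusted p = 0.00777). Every rat had more mouse Egln3 in its core, with the lowest core value, of Rat3869, below the highest rim value, of Rat3875. Without Rat3876 and Rat3877 together its call ended (log2 difference 0.50, adjusted p = 0.0558).

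Among the tumor-cell genes that handle acid and glucose, Car9, a surface carbonic anhydrase widely used as a marker of tumor hypoxia, had 397, 349, 628, 385 and 278 CPM in cores, against 186, 217, 254, 265 and 263 CPM in rims (0.74, SE 0.17, adjusted p = 0.0166). All cores lay above all rims, the core of Rat3875 highest. Car12, a second surface carbonic anhydrase, had 86.1, 62.8, 121, 112 and 101 CPM in cores, against 43.7, 51.1, 69.1, 33.4 and 90.3 CPM in rims (0.80, SE 0.21, adjusted p = 0.0293). The rims of Rat3875 and Rat3877 reached into the range of the cores. Slc2a1, the glucose carrier GLUT1, was higher in the core of every rat, at 266 to 587 CPM in cores and 160.3 to 336 CPM in rims (0.68, SE 0.18, adjusted p = 0.0289). These calls depended on single rats: without Rat3867 or without Rat3875 none of them held, and without Rat3876 Car12 and Slc2a1 did not hold, and Slc2a1 was not called without the rat as a block either (adjusted p up to 0.0629 for Car9, 0.0905 for Car12 and 0.106 for Slc2a1).

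Among the genes of glucose and nucleotide metabolism, mouse Pfkfb3, which makes the allosteric activator of phosphofructokinase, had 62.7, 38.9, 77.6, 78.7 and 77.1 CPM in cores, against 23.9, 33.9, 32, 30.2 and 38.8 CPM in rims (1.05, SE 0.18, adjusted p = 0.00576). The core of Rat3869 was low and stood just above the highest rim, that of Rat3877, so the groups did not overlap. Ak4, a mitochondrial adenylate kinase, rose in the core as well, 54.8 to 66.5 CPM against 26.8 to 53.3 CPM in rims (0.60, SE 0.15, adjusted p = 0.0228), a call lost without Rat3867, Rat3869 or Rat3875 (adjusted p up to 0.0778). Pdk1, a kinase that inhibits pyruvate dehydrogenase, Pfkfb4, the glycogen synthase Gys1 and the branching enzyme Gbe1 gave log2 differences of 0.32, 0.61, 0.17 and 0.34 and were not called (adjusted p = 0.126, 0.0976, 0.413 and 0.131).

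Of the mitochondrial members, mouse Higd1a, an inner-membrane protein of the respiratory chain, was higher in every core than in any rim: 94.7, 87.2, 117, 70.9 and 72.8 CPM in cores, against 26.6, 44, 50.6, 43.8 and 42.7 CPM in rims (1.10, SE 0.16, adjusted p = 0.00371). The rim of Rat3867 was the lowest by some distance. Bnip3, a receptor that marks mitochondria for removal, was higher in each rat's core (98.8 to 203 CPM in cores, 68.8 to 119 CPM in rims; 0.64, SE 0.16, adjusted p = 0.0236), but not without Rat3867, Rat3875 or Rat3876 (adjusted p up to 0.0849) or without Rat3876 and Rat3877 together (0.0607). Fam162a, a mitochondrial protein linked to cell death, rose too (183 ± 8.47 CPM in cores, 125 ± 33.4 CPM in rims, SD, n = 5 each; 0.59, SE 0.13, adjusted p = 0.017), and lost its call without Rat3867 or Rat3875 (up to 0.0696). Bnip3l, also called Nix, a relative of Bnip3 with the same task, showed 254 ± 52.5 CPM in cores and 222 ± 22.7 CPM in rims, without a call (0.18, SE 0.13, adjusted p = 0.39).

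The collagen-modifying genes of the tumor cells rose together, 4 of 4 of those measured. P4ha1, the catalytic subunit of the prolyl hydroxylase that stabilizes the collagen helix, had 503, 339, 410.5, 373 and 463 CPM in cores, against 186, 179.7, 190.2, 249 and 281 CPM in rims (0.95, SE 0.13, adjusted p = 0.00273). The groups did not overlap, and every rat had more in its core. Its paralogue P4ha2 read 68.9, 42.2, 81.6, 77.3 and 94.4 CPM in cores, against 38, 45.1, 35.1, 50.5 and 37.7 CPM in rims (0.78, SE 0.19, adjusted p = 0.0231), with Rat3869 the only rat with slightly less in the core. The lysyl hydroxylase Plod1 read 118, 79.2, 153, 107 and 123 CPM in cores, against 46.4, 65.7, 73.5, 48.6 and 82.4 CPM in rims (0.88, SE 0.16, adjusted p = 0.00708), higher in the core of all 5 rats. Plod2, the lysyl hydroxylase that forms stiff crosslinks, rose as well (203 to 364 CPM in cores, 137 to 205 CPM in rims; 0.66, SE 0.13, adjusted p = 0.0101). The calls of P4ha1, Plod1 and Plod2 held in all 17 alternative settings, and that of P4ha2 ended without Rat3867, Rat3875 or Rat3876 (adjusted p up to 0.0891) and without Rat3876 and Rat3877 together (0.1). The endoplasmic reticulum oxidase Ero1l, which drives disulfide formation, was not called (0.49, SE 0.20, adjusted p = 0.123).

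The secreted and stress genes held the widest called difference among the mouse members. Mouse Stc2, a secreted glycoprotein of the stanniocalcin family (chromosome 11:31357307-31370074, minus strand, GRCm38), had 18.1, 36.5, 42.5, 19.3 and 11.6 CPM in cores, against 1.62, 11.8, 4.79, 1.33 and 11.2 CPM in rims (5.41-fold higher; 2.44, SE 0.50, adjusted p = 0.0117). The rims of Rat3869 and Rat3877 were high and the other 3 low, and the rats differed much among themselves: their log2 differences were 3.48, 1.63, 3.15, 3.86 and 0.05, so Rat3877 showed almost none. Adm, the vessel-dilating peptide adrenomedullin (chromosome 7:110627661-110629820, plus strand), had 54.3, 36.2, 97.6, 42.3 and 68.5 CPM in cores, against 14.5, 24.2, 36.3, 20.3 and 42.2 CPM in rims (1.13, SE 0.19, adjusted p = 0.00561). Each rat's core was above its own rim, though the groups overlapped. Ndrg1, a stress-induced metastasis suppressor, was measured at 1059, 556, 1572, 1004 and 864 CPM in cores, against 325, 549.8, 611, 300.4 and 541 CPM in rims (1.10, SE 0.24, adjusted p = 0.015). In Rat3869 core and rim were nearly equal, and the call was lost without Rat3867 or Rat3875 (adjusted p up to 0.0599). Ddit4, an inhibitor of mTORC1, Hilpda, a lipid droplet protein, and Ankrd37 gave 0.25, 0.26 and 0.08 on the log2 scale and were not called (adjusted p = 0.161, 0.268 and 0.753).

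The histone demethylases Kdm3a and Kdm4b, the Myc antagonist Mxi1 and the clock-linked repressor Bhlhe40 had positive differences in the tumor cells (0.40, 0.47, 0.27 and 0.14 on the log2 scale) that missed the threshold, Kdm3a most narrowly (adjusted p = 0.0594). Mouse Rora was not analysed here.

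**Figure D2:**
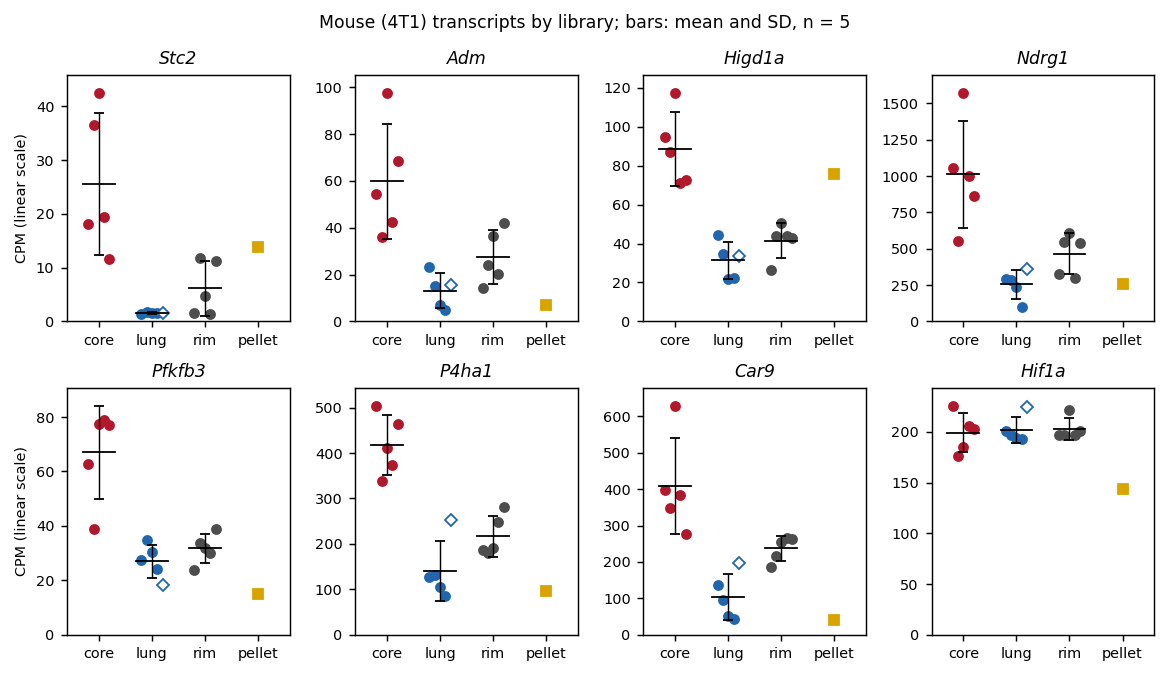
CPM (linear axes from 0) of 8 mouse members in each core, lung and rim library and in the 4T1 pellet; horizontal bars are means and error bars SD (n = 5), and the open diamond is the library labelled lung from Rat3789. The pellet value is scaled to its own mouse total. For Car9, P4ha1, Pfkfb3 and Higd1a all cores lie above all rims, whereas for Hif1a the regions overlap.

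The rats did not contribute equally to these differences. The median difference over the 32 mouse members was 0.86 in Rat3867, 0.08 in Rat3869, 0.78 in Rat3875, 0.58 in Rat3876 and 0.33 in Rat3877, and the number of members higher in the core was 31, 18, 31, 30 and 30 of 32. Rat3869 thus stood out by a small and mixed difference. Averaged over the members, the mean log2 CPM was 6.39 in its core, the lowest of the cores (up to 7.10 in Rat3875), while its rim, at 6.20, lay within the range of the rims (5.805 to 6.298). Without Rat3867 or without Rat3875, 8 members were called, and without Rat3869 20 were. Over all mouse genes, 1357 were called without Rat3867, 1272 without Rat3875 and 2397 without Rat3869 (2585 with all rats).

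In the host cells, 25 of the 37 members were called, of which 20 were higher in the core and 5 were lower, where 37.6% of all 13559 rat genes tested were called, 17.5% as higher and 20.1% as lower. The median log2 difference of the members was 0.51, against 0.00 for all genes tested. The higher genes comprised 6 of 7 genes of glucose and nucleotide metabolism, 3 of 4 of mitochondria, 4 of 6 secreted or stress genes, 2 of 3 of acid and glucose transport, 2 of 5 of transcription and chromatin, 2 of 5 oxygen sensors and factors and 1 of 7 of collagen and protein folding. The 5 lower genes were Epas1 and, of the collagen role, Lox, Loxl2, P4ha2 and Plod1. Markers of several host cell types also differed between the regions. Fibroblast transcripts (9 of 10 markers in the table, Col1a2 not analysed here) summed to 6327 to 13995 CPM in cores, against 38798 to 70179 CPM in rims, and each of the 9 was lower in all cores than in all rims. Macrophage transcripts (12 of 12) summed to 13948 to 19526 CPM in cores and 11012 to 15721 CPM in rims, overlapping sums in which Rat3875 had the lower value in its core. These markers did not move together. Lyz2, which makes up much of the sum (4823 to 8118 CPM in cores, 1443 to 3045 CPM in rims), Cd68, C1qb, Ptprc and Aif1 were higher in all cores than in all rims. Cd163, a scavenger receptor of resident macrophages (58 to 372 CPM in cores, 864 to 2783 CPM in rims), and Adgre1 (12.8 to 68.7 CPM in cores, 78.1 to 153 CPM in rims) were lower in all cores. Neutrophil transcripts (6 markers) summed to 210 to 1220 CPM in cores and 138 to 190 CPM in rims, every core above every rim, with S100a8 and S100a9 the 2 markers that did not overlap. None of these fibroblast, macrophage and neutrophil markers was at 0. Adipocyte transcripts (7 of 7) summed to 198 to 590 CPM in cores and 554 to 944 CPM in rims, most of it Lpl and Fabp4, with Lep and Pck1 at 0 reads in at least 1 library of each region. The part of these cells in the members' differences was not tested.

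Host Hif1a had 251, 195, 142, 196 and 236 CPM in cores, against 244, 205, 268, 289 and 251 CPM in rims, and was not called (-0.32, SE 0.14, adjusted p = 0.117). Epas1, the alpha subunit typical of endothelium, macrophages and other stromal cells, had 93.1, 70.7, 69.5, 68.1 and 90.2 CPM in cores, against 90.7, 101, 106, 169 and 129 CPM in rims (-0.58, SE 0.17, adjusted p = 0.0251). It fell in the core in 4 of 5 rats, and the call was lost without Rat3869, Rat3875, Rat3876 or Rat3877 (adjusted p up to 0.0678) and without Rat3876 and Rat3877 together (log2 difference -0.36, adjusted p = 0.156). Endothelial markers (8 of 10 in the table; Pecam1 and Cldn5 not analysed here) summed to 302 to 848 CPM in cores and 482 to 900 CPM in rims, none at 0, and their part was not tested. Host Vhl was not called, at 44.3 to 69.5 CPM in cores and 47.6 to 57.8 CPM in rims (0.14, SE 0.11, adjusted p = 0.386). Egln1 read 78.1, 95, 86, 66.6 and 67.7 CPM in cores, against 45.4, 66.4, 58, 50.8 and 60.1 CPM in rims (0.49, SE 0.11, adjusted p = 0.00815), every core above every rim by a narrow gap. Reads of mouse origin may make up 12.6% (core) and 10.5% (rim) of rat Egln1, and the call held when the expected share was subtracted (0.46, adjusted p = 0.0191). Egln3 showed 226, 206, 248, 154 and 201 CPM in cores, against 28.7, 91.9, 47.5, 31.5 and 69.6 CPM in rims, 4.2-fold higher (2.07, SE 0.24, adjusted p = 0.000396). No rim reached the lowest core, and the call held in all 17 alternative settings.

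Host Slc2a1 followed the same order, 1024, 807, 1263, 736 and 917 CPM in cores, against 219, 519, 362, 197 and 498 CPM in rims (1.49, SE 0.23, adjusted p = 0.00154), without overlap. Host Car9 had 30.7, 67.9, 105, 54.5 and 22.1 CPM in cores, against 10.6, 64.8, 31.7, 12.8 and 19.8 CPM in rims (1.12, SE 0.31, adjusted p = 0.0214). Its values varied widely in both regions, the groups overlapped, and the call was lost without Rat3867, Rat3875 or Rat3876 (adjusted p up to 0.075). Reads of mouse origin may make up 1.93% (core) and 2.55% (rim) of rat Car9 (medians), and up to 17.4% in 1 library when lungs are included. With the expected share subtracted the call held (1.13, adjusted p = 0.0258). Without the rat as a block the call ended. Car12 was not called (0.35, SE 0.30, adjusted p = 0.398).

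In host metabolism 6 of 7 members rose in the core. Ak4 had 45.3, 34.2, 54.8, 36 and 50.8 CPM in cores, against 13, 27.6, 21.9, 13.1 and 21.7 CPM in rims (1.22, SE 0.20, adjusted p = 0.0022). Ppp1r3c, a targeting subunit that brings phosphatase to glycogen, Pfkfb3 and Pdk1 rose by 1.12, 1.10 and 0.98 on the log2 scale (adjusted p = 0.0049, 0.00061 and 0.000948). For Ak4 and these 3 genes no rim reached the lowest core. Gys1 and Gbe1, which build glycogen, rose by 0.80 and 0.68 (adjusted p = 0.00126 and 0.00837). Gbe1 was nearly equal in core and rim of Rat3869 and was not called without Rat3876 and Rat3877 together (0.65, adjusted p = 0.0736). Pfkfb4 was not called (0.30, SE 0.29, adjusted p = 0.456).

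Host Bnip3 had 406, 458, 513, 367 and 390.1 CPM in cores, against 123, 245, 231, 121 and 206 CPM in rims (1.26, SE 0.14, adjusted p = 0.000333). No rim reached the lowest core. Higd1a and Fam162a rose by 0.64 and 0.58 on the log2 scale (adjusted p = 0.00457 and 0.000871), both in all 5 rats. Bnip3l was not called (-0.25, SE 0.11, adjusted p = 0.105).

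The host collagen genes split in direction. Lox, the secreted enzyme that crosslinks collagen and elastin, had 50.9, 155, 226, 138 and 46.8 CPM in cores, against 792, 973, 946, 710.2 and 741 CPM in rims, 8.03-fold lower (-3.00, SE 0.29, adjusted p = 0.000201). Its relative Loxl2 read 60.3, 88.4, 122, 109.5 and 39 CPM in cores, against 474, 494, 337, 321 and 408 CPM in rims, 5.18-fold lower (-2.37, SE 0.27, adjusted p = 0.000414). For both, no core came near a rim, and the calls held in all 17 alternative settings. P4ha2 and Plod1 fell by smaller amounts (-0.62 and -0.50, adjusted p = 0.00942 and 0.0124), P4ha2 not without Rat3876 and Rat3877 together (-0.50, adjusted p = 0.0846). The fibroblast sums given above were also lower in all cores than in all rims, and their part in these 4 genes was not tested. P4ha1 and Plod2 were not called (0.17 and -0.04, adjusted p = 0.157 and 0.912). Ero1l, which serves the secretory pathway of all cells, rose: 453, 481, 552, 361 and 454 CPM in cores, against 177, 347, 254, 159.6 and 282 CPM in rims (0.96, SE 0.14, adjusted p = 0.00104).

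Of the host genes of transcription, Kdm3a and Bhlhe40 rose (0.55 and 0.51, adjusted p = 0.00317 and 0.0162), Bhlhe40 not without Rat3867, Rat3875 or Rat3876 (adjusted p up to 0.0587) or without Rat3876 and Rat3877 together (0.121). Rora, a nuclear receptor, was lower in the core of all 5 rats but missed the threshold (-0.78, SE 0.29, adjusted p = 0.0659), and Kdm4b and Mxi1 were not called (0.11 and 0.30, adjusted p = 0.44 and 0.08). Hilpda, which slows the breakdown of lipid droplets, had 87.3, 107, 92.1, 45.6 and 83.9 CPM in cores, against 15, 40.7, 24.8, 13.2 and 35.3 CPM in rims (1.77, SE 0.18, adjusted p = 0.000245). The core of Rat3876 was lowest yet lay above every rim. Ndrg1 showed 1222, 1307, 2076, 1051 and 982 CPM in cores, against 409, 717, 613, 444 and 762 CPM in rims (1.16, SE 0.19, adjusted p = 0.00225), again without overlap. Adm read 133, 98.2, 152, 71.8 and 125 CPM in cores, against 28.5, 72.9, 49.7, 45.3 and 64.9 CPM in rims (1.18, SE 0.24, adjusted p = 0.006), and here the core of Rat3876 lay just below the rim of Rat3869. Stc2 rose by 0.87 (adjusted p = 0.0164), but not without the rat as a block (adjusted p = 0.0664), and Ddit4 and Ankrd37 were not called (-0.40 and 0.40, adjusted p = 0.0854 and 0.135).

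**Figure D3:**
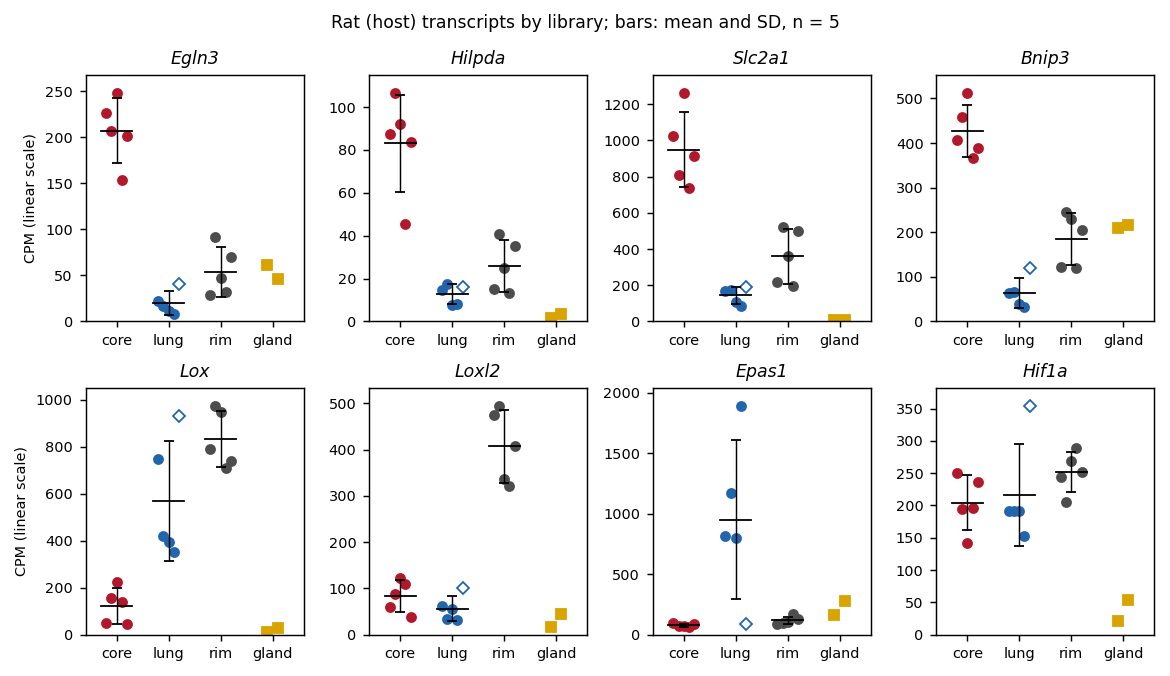
CPM (linear axes from 0) of 8 rat members in each core, lung and rim library and in the 2 mammary glands without a tumor; horizontal bars are means and error bars SD (n = 5), and the open diamond is the library labelled lung from Rat3789. Gland values are scaled to their own rat totals. Egln3, Hilpda, Slc2a1 and Bnip3 are highest in the cores, Lox and Loxl2 in the rims, and Epas1 in 4 of the 5 lungs.

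Set side by side, 11 members were called as higher in the core in both species: Adm, Ak4, Bnip3, Car9, Egln3, Fam162a, Higd1a, Ndrg1, Pfkfb3, Slc2a1 and Stc2. Another 8 were called as higher in the host and not called in the tumor cells (Bhlhe40, Egln1, Ero1l, Gbe1, Gys1, Hilpda, Kdm3a and Pdk1), and P4ha2 and Plod1 were called in opposite directions. Over all genes tested, 10.1% of mouse and 17.5% of rat genes were called as higher. The share of all matched genes in each of these classes was not counted, so the counts are a description only. Whether a gene differed between the species was tested directly, by limma on the 5 differences per rat (core minus rim in mouse transcripts, minus core minus rim in rat transcripts) over 9743 genes matched by symbol. Of the 32 members in both tables, 13 were called, 6 with a more positive difference in the tumor cells and 7 with a more positive difference in the host, where 35.8% of all matched genes were called, 19.2% and 16.6% in these directions. The members were thus called at rates near those of all matched genes. Their median was -0.05, against 0.01 for all matched genes.

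The called members with a more positive difference in the tumor cells included 4 collagen-modifying enzymes. P4ha2 differed by 0.78 in the tumor cells and -0.62 in the host (mouse minus rat 1.41, SE 0.22, adjusted p = 0.0021), and Plod1 by 0.88 in the tumor cells and -0.50 in the host (1.37, SE 0.19, adjusted p = 0.00119). P4ha1 and Plod2 had the same order, mouse minus rat 0.78 and 0.70 (adjusted p = 0.00375 and 0.0111). In all 5 rats each of these 4 genes was more positive in mouse than in rat transcripts. Of the 5 collagen and folding members measured in both species, Ero1l alone went the other way (-0.47, SE 0.12, adjusted p = 0.0158), a call lost without Rat3876 or Rat3877 (adjusted p up to 0.0526) and without both together (0.154). Stc2 had the widest gap between species, with per-rat differences of 3.48, 1.63, 3.15, 3.86 and 0.05 in mouse and 0.54, 0.94, 1.79, 0.95 and 0.12 in rat transcripts (mouse minus rat 1.57, SE 0.45, adjusted p = 0.0269), but in Rat3877 the rat difference was the larger, and the call ended without Rat3867, Rat3875 or Rat3876 (adjusted p up to 0.0836). Ddit4 was also called (0.64, SE 0.20, adjusted p = 0.0343), not without Rat3867, Rat3875 or Rat3877 (adjusted p up to 0.0839) or without Rat3876 and Rat3877 together (0.0852).

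The called members with a more positive difference in the host included Hilpda, Egln3, Slc2a1, Pdk1, Gys1 and Bnip3. Hilpda had per-rat differences of 0.34, 0.74, 0.17, 0.29 and -0.24 in mouse transcripts and 2.54, 1.39, 1.89, 1.78 and 1.25 in rat transcripts (mouse minus rat -1.51, SE 0.22, adjusted p = 0.00147). For Egln3 they were 0.85, 0.25, 0.41, 0.75 and 0.85 in mouse transcripts and 2.98, 1.17, 2.38, 2.29 and 1.53 in rat transcripts (-1.45, SE 0.22, adjusted p = 0.00162). The 2 ranges were apart for both genes. Slc2a1, Pdk1, Gys1 and Bnip3 gave mouse minus rat values of -0.80, -0.65, -0.63 and -0.62 (adjusted p = 0.00213, 0.00541, 0.0079 and 0.00406), and in each of the 5 rats the host difference was the larger. These 6 calls, and those of P4ha1, P4ha2, Plod1 and Plod2, held in all 13 alternative settings. The rat fibroblast sums given above are lower and the neutrophil sums higher in all cores than in all rims, while the macrophage sums overlap, and their part in the difference between species was not tested.

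**Figure D4:**
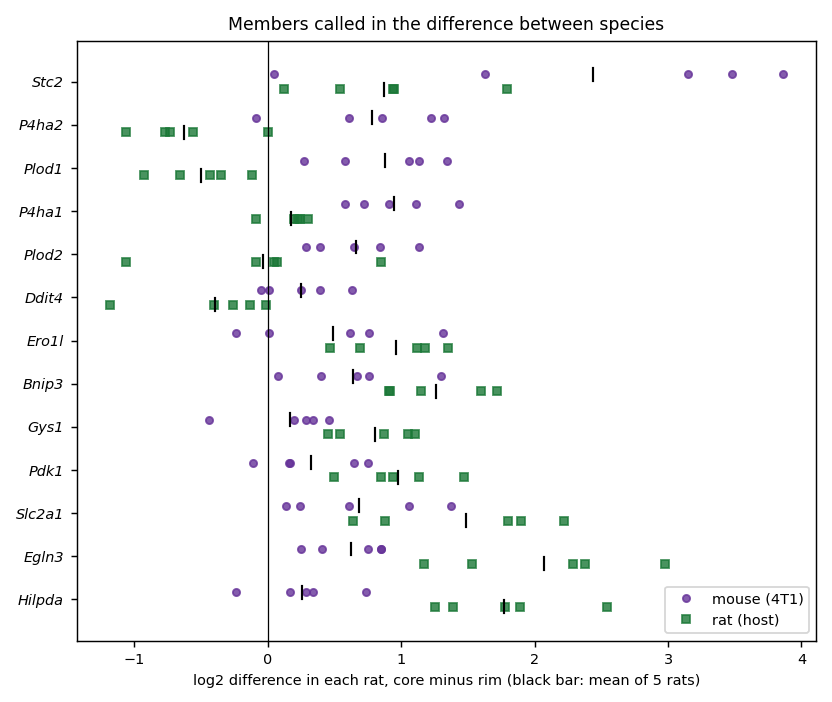
Core minus rim on the log2 scale in each of the 5 rats for the 13 members called in the difference between species, ordered from the most positive to the most negative mouse minus rat value. Circles are mouse (tumor cell) and squares rat (host) transcripts, and black bars are means. P4ha2 and Plod1 lie on opposite sides of 0 in the 2 species on average, and for Hilpda and Egln3 the points of the species do not mix.

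Many of these transcripts were lower in the tumor cells of the lungs than in those of the rims. Of the 32 mouse members, 15 were lower in lung than in rim and 0 higher (limma without a block), where 20.1% of 12970 mouse genes tested were called, 9.91% as higher and 10.2% as lower. The median log2 difference of the members was -0.63, against 0.01 for all genes tested. The difference was below 0 for 31 of 32, Pfkfb4 being the exception (0.42, adjusted p = 0.178), and 0 were higher at an unadjusted p under 0.05 or by edgeR, limma-voom or DESeq2, which called 13, 15 and 18 as lower. Over all genes, edgeR, limma-voom and DESeq2 called 2568, 2508 and 3330. Without the library labelled lung from Rat3789, 20 members were called, all lower, including the 15 called with it. Calls over all mouse genes rose as well, from 2603 with it to 2831 without it. With the rat as a block over the 4 rats that gave both organs, 25 members were called, all lower, and 2436 of all genes. Leaving out Rat3875 or Rat3876 left 6 member calls each (1515 and 1359 over all genes), and leaving out Rat3869 or Rat3877 left 9 each (1312 and 2263).

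Mouse Pdk1 had 43.8, 41.4, 17.3, 13.3 and 94.7 CPM in lungs, against 88.3, 108, 149, 83.6 and 79 CPM in rims (-1.58, SE 0.44, adjusted p = 0.027). The library labelled lung from Rat3789 lay among the rims while the other 4 lay below all of them. Ankrd37, an ankyrin repeat protein of unclear role, had 6.53, 3.42, 1.99, 1.14 and 8.03 CPM in lungs, against 9.35, 8.24, 11.2, 10.5 and 10.2 CPM in rims (-1.56, SE 0.45, adjusted p = 0.0296). Its exons overlap those of Ufsp2 and Lrp2bp on the other strand, and as no source used here gives the strand setting, reads of these genes may be mixed. Car9 read 136, 95.9, 52.4, 43.5 and 196 CPM in lungs, against 186, 217, 254, 265 and 263 CPM in rims (-1.39, SE 0.35, adjusted p = 0.0166). Again the value from Rat3789 was the highest and the only 1 to reach the rims. Ddit4 read 108, 89, 76.6, 46.6 and 158 CPM in lungs, against 237, 198, 279.8, 207 and 199 CPM in rims (-1.33, SE 0.25, adjusted p = 0.00495), without overlap. Bnip3 showed 53.4, 42.5, 24.6, 18.4 and 69.9 CPM in lungs, against 68.8, 93.5, 119, 83.7 and 94 CPM in rims (-1.28, SE 0.31, adjusted p = 0.0156). Without Rat3789 the differences of these 5 genes were -1.96, -1.88, -1.67, -1.54 and -1.51 on the log2 scale.

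Of the other called mouse members, Bhlhe40, P4ha2, Kdm3a and Bnip3l were lower in lungs, with log2 differences of -1.18, -1.02, -0.63 and -0.67 (adjusted p = 0.00046, 0.00512, 0.00994 and 0.00759), and like Ddit4 they stayed called in all 17 alternative settings. Egln1, Slc2a1, Gys1, Ak4, Mxi1 and Hilpda were also lower (-0.63, -0.75, -0.43, -1.07, -0.59 and -0.60). Single rats ended calls here. Those of Car9, Bnip3 and Egln1 were lost without Rat3875 or Rat3876 (adjusted p up to 0.0772, 0.0631 and 0.0611), and those of Slc2a1, Pdk1 and Ak4 also without Rat3869 or Rat3877 (up to 0.104, 0.0894 and 0.132). Gys1 and Hilpda were lost without any one of the 5 rats with a rim (up to 0.14 and 0.141), Ankrd37 without any of them but Rat3869 (up to 0.115), and Mxi1 without Rat3869 (0.0723). EdgeR on the reads did not call Pdk1, Ak4 or Ankrd37, and DESeq2 did not call Pdk1. For mouse Egln1, reads of rat origin may reach 16.2% in lungs (median; up to 28.7% in 1 library) and 8.43% in rims, and with that share subtracted the difference was -0.81 (adjusted p = 0.0108), against -0.63 as deposited. Hif1a was not called, at 200.5, 197, 194, 193 and 225 CPM in lungs and 197 to 222 CPM in rims (-0.01, SE 0.07, adjusted p = 0.967). Vhl and Egln3 were not called either (-0.11 and -0.17, adjusted p = 0.487 and 0.589). Mouse Stc2, highest in cores, was at 1.3 to 1.77 CPM in lungs and 1.33 to 11.8 CPM in rims and was not called (-1.42, SE 0.57, adjusted p = 0.0956).

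**Figure D5:**
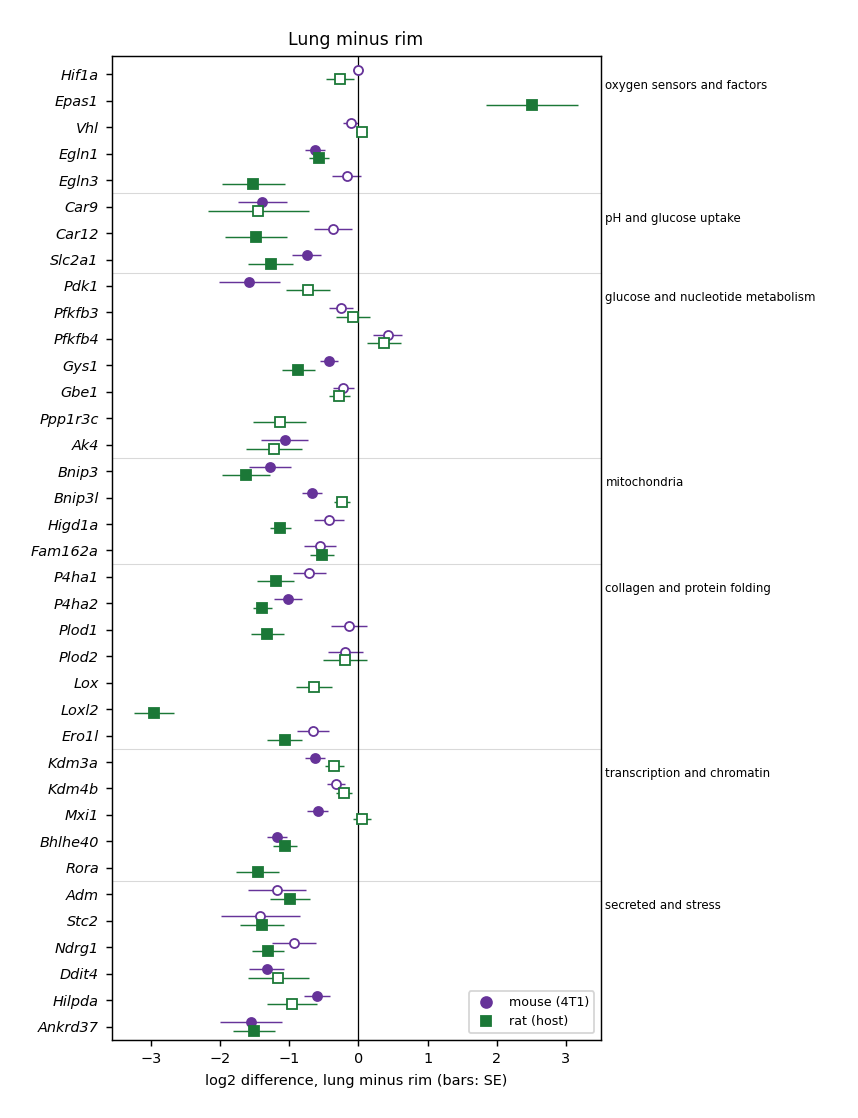
Log2 difference between lung and rim (lung minus rim, limma, n = 5 libraries each) for each member, grouped by role, in mouse (circles) and rat (squares) transcripts. Filled symbols passed the adjusted p threshold of 0.05 and bars are SE. Called members lie to the left of 0 in both species, with rat Epas1 at 2.51 as the exception.

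In the host this comparison sets lung tissue against mammary tumor stroma, so the organ and the site of the tumor cannot be told apart. Of the 37 rat members, 19 were lower and 1 higher in lung than in rim, where 22.1% of 13841 rat genes tested were called, 10.5% as higher and 11.6% as lower. The median log2 difference of the members was -1.06, against 0.02 for all genes tested. With total count scaling in place of the authors' scale the median of all rat genes moved to 0.15, all calls split into 2435 higher and 1255 lower (1458 and 1607 on the authors' scale), and 18 members were lower and 1 higher. In mouse transcripts the same change split the calls between lung and rim into 1717 higher and 1108 lower (1285 and 1318 on the authors' scale) and those between core and rim into 1139 and 1515 (1326 and 1259), with the counts of called members as before. Without the library labelled lung from Rat3789, 26 rat members were called, 25 lower and 1 higher, including all 20. Calls over all 13841 rat genes rose as well, from 3065 with it to 4113 without it. Leaving out Rat3869, Rat3875 or Rat3877 left 9, 9 and 10 member calls, and 1875, 1509 and 2043 over all rat genes.

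Host Epas1, which is abundant in the endothelium and alveoli of normal lung, had 813, 1170, 798, 1888 and 89.1 CPM in lungs, against 90.7, 101, 106, 169 and 129 CPM in rims (2.51, SE 0.67, adjusted p = 0.0221). The library labelled lung from Rat3789 was lower than all rims, while the other 4 were above all of them. Without it the difference was 3.23 (adjusted p = 8.92e-06). Leaving out any one of the other 5 rats ended the call (adjusted p up to 0.11). Endothelial markers summed to 757 CPM in the library from Rat3789 and to 1071 to 2280 CPM in the other lungs, against 482 to 900 CPM in rims.

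Loxl2 had 62, 34.3, 54.9, 31.3 and 100 CPM in lungs, against 474, 494, 337, 321 and 408 CPM in rims (-2.96, SE 0.29, adjusted p = 0.000111), all lungs far below all rims. Bnip3 read 64.7, 65.1, 38, 31.8 and 119 CPM in lungs, against 123, 245, 231, 121 and 206 CPM in rims (-1.63, SE 0.35, adjusted p = 0.00817). Ankrd37 read 4.91, 7.47, 2.53, 2.98 and 3.47 CPM in lungs, against 11.8, 14.9, 13, 8.98 and 8.66 CPM in rims (-1.51, SE 0.30, adjusted p = 0.00544). For all 3, no lung reached the lowest rim. Egln3 was 22.5, 17.2, 11.8, 7.74 and 40.7 CPM in lungs, against 28.7, 91.9, 47.5, 31.5 and 69.6 CPM in rims (-1.52, SE 0.45, adjusted p = 0.0354); here Rat3789 overlapped the rims, and the call was lost without Rat3869, Rat3875, Rat3876 or Rat3877 (adjusted p up to 0.141). Of the other lower host members, Higd1a, P4ha2, Plod1, Bhlhe40, Rora and Ndrg1 stayed called in all 17 alternative settings, with log2 differences of -1.13, -1.39, -1.32, -1.06, -1.46 and -1.31 (adjusted p = 0.000608, 0.000158, 0.00375, 0.00152, 0.00683 and 0.00285). Egln1, Car12, Slc2a1, Gys1, Fam162a, P4ha1, Ero1l, Adm and Stc2 were lower as well (-0.57, -1.48, -1.27, -0.87, -0.53, -1.20, -1.07, -0.99 and -1.40). All 9 lost their calls without Rat3869 or Rat3875, and all but P4ha1 without Rat3877. Gys1, Adm and Fam162a did so without Rat3876 too, and Car12 and Fam162a without Rat3867. The highest adjusted p was 0.0777 for Egln1, 0.118 for Car12, 0.0787 for Slc2a1, 0.114 for Gys1, 0.17 for Fam162a, 0.0529 for P4ha1, 0.0748 for Ero1l, 0.119 for Adm and 0.0703 for Stc2. Limma-voom called neither Car12 nor Fam162a, and edgeR and total count scaling did not call Fam162a.

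Host Lox was not called between lung and rim with all libraries (-0.65, SE 0.26, adjusted p = 0.103) but fell without Rat3789 (-0.85, adjusted p = 0.00942), at 354 to 747 CPM in the other 4 lungs, 929 CPM in the library from Rat3789 and 710.2 to 973 CPM in rims. Hif1a had 192, 191, 192, 153 and 354 CPM in lungs, against 205 to 289 CPM in rims (-0.27, SE 0.20, adjusted p = 0.364). The value from Rat3789 stood above every rim and the others below every rim, and without it host Hif1a was called as lower (-0.46, adjusted p = 0.00998). Host Vhl was not called (0.05, SE 0.08, adjusted p = 0.738). Rat fibroblast markers summed to 5326 to 13384 CPM in the 4 other lungs, to 30904 CPM in the library from Rat3789 and to 38798 to 70179 CPM in rims. Neutrophil markers summed to 442 to 5497 CPM in lungs and 138 to 190 CPM in rims, every lung above every rim, and macrophage markers to 13515 to 34181 CPM in lungs and 11012 to 15721 CPM in rims. The part of these cells in the differences was not tested.

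The single-species samples place these levels, as a description without a test. Mouse Car9 read 278 to 628 CPM in cores, 43.5 to 196 CPM in lungs and 186 to 265 CPM in rims, and 39.5 CPM in the pellet of cultured 4T1 cells (95% Poisson interval 37.2 to 41.8, counting error only). Every tumor and lung library was thus above the pellet, and the same held for Hif1a, at 144 CPM in the pellet. Of the 32 mouse members, 28 were above the pellet in all 5 cores, 12 in all 5 lungs and 24 in all 5 rims. The share of all mouse genes above the pellet was not counted, and pellet and tumor values are scaled in different ways. Stc2 read 11.6 to 42.5 CPM in cores, 1.3 to 1.77 CPM in lungs and 1.33 to 11.8 CPM in rims, and 13.9 CPM in the pellet, so its lungs and rims were below the pellet and its cores on both sides of it. Higd1a, Vhl and Hilpda were also lower in all lungs and all rims than in the pellet, and Vhl in all cores. Mouse members not analysed in the tumor libraries had few pellet reads, of 29446694 on mouse genes. They were 0 for Epas1, 1 for Lox, 11 for Loxl2, 1 for Rora and 2 for Ppp1r3c.

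In rat transcripts, 29 of 37 members exceeded both glands in all 5 cores, 18 in all 5 lungs and 25 in all 5 rims. For all rat genes this share was not counted, and gland values too are scaled to their own totals. Slc2a1 read 736 to 1263 CPM in cores, 83.3 to 191 CPM in lungs and 197 to 519 CPM in rims, and 6.28 and 10.5 CPM in the glands. Lox, at 11.3 and 28.7 CPM in the glands, was higher in every tumor and lung library. Ppp1r3c, Gys1 and Egln1 were lower in every tumor and lung library than in both glands. Ppp1r3c read 31 to 50.7 CPM in cores, 5.0 to 17.7 CPM in lungs and 9.76 to 22.5 CPM in rims, and 189.7 and 158 CPM in the glands. Gland, tumor and lung differ in their cell types, and these cannot be told apart from levels per cell.

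Read across the 3 sites, the median of mouse CPM ran core, rim, lung from high to low for 29 of the 32 members, the exceptions being Hilpda, Hif1a and Pfkfb4. In rat transcripts the same order held for 25 of 37. How many of all genes follow this order was not counted. Both comparisons use the same rims, and their values are therefore only given side by side.

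Other genes of the pathway were read from lists beside the members. Between core and rim, 19.8% of all mouse genes tested were called (10.1% higher, 9.63% lower). Of all rat genes tested, 37.6% were called (17.5% higher, 20.1% lower). Of 12 tested mouse genes of the hypoxia-inducible factor system that are not members, 1 was called between core and rim, the coactivator inhibitor Cited2 (0.72, SE 0.18, adjusted p = 0.0271), and of 12 in the host 2 were, Cited2 higher (1.39, SE 0.17, adjusted p = 0.000482) and the hydroxylase Egln2 lower (-0.43, SE 0.12, adjusted p = 0.0207). Of 18 glycolytic and lactate genes in the tumor cells, 2 rose in the core (Hk2 and Eno2), 1 fell (Aldoc) and 15 were not called, with a median of 0.23. Of 16 in the host, 11 rose and 0 fell, with a median of 0.81, the lactate exporter Slc16a3 among them (1.29, SE 0.09, adjusted p = 7.01e-05). In the direct test between species 10 of 14 glycolytic genes were called, all toward the host, with a median of -0.55. Of all matched genes, 35.8% were called, 16.6% toward the host. Of 15 other hypoxia targets in the tumor cells 7 rose in the core and 1, the transferrin receptor Tfrc (named after its values were seen), fell, with a median of 0.41. The heme oxygenase Hmox1 (2.29, SE 0.27, adjusted p = 0.00162) and Vegfa (0.93, SE 0.16, adjusted p = 0.00584) were among those that rose. Of 20 in the host 8 rose and 3 fell, with a median of 0.19. The widest difference was that of the nitric oxide synthase Nos2 (4.135, SE 0.39, adjusted p = 0.000188), an enzyme of activated macrophages.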

How the data were processed

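Reads of both species were separated and assigned to genes by the authors, who list Trim Galore, STAR, featureCounts and limma with GRCm38 and Rnor_6.0, per the submitters' processing notes. No source used here gives the strand setting or versions. The authors deposited a normalised signal per gene for tumor and lung libraries and raw counts per gene for pellet and glands. In the deposited signal, 100% of values are whole reads plus 0.5 times a constant of the library (within 0.01 reads), so reads were recovered for the count-based alternatives.

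Log2 of the deposited signal was tested with limma 3.58.1 (trend) in R 4.3.3 over genes that reached 1 CPM in 5 or more libraries of the comparison, two-sided, with Benjamini-Hochberg adjustment over all genes tested and a threshold of 0.05. "Called" means past it. Core and rim were paired by the rat named in the labels. Deviations of same-rat libraries correlated at -0.18 to 0.24 in mouse and 0.03 to 0.34 in rat transcripts. Lung and rim were compared without a block, since Rat3789 lacked a rim and Rat3867 a lung. Alternatives were other filters, scalings and pseudocounts, subtraction or removal of reads shared between species, edgeR 4.0.16, limma-voom and DESeq2 1.42.0 on recovered reads, each rat left out, and Rat3876 with Rat3877 left out. The code was tested on simulated data. Pellet and gland CPM are counts over own totals. The labels do not tie the gland columns to single animals.

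Members and lists were chosen with earlier results of these data known. Values per library are given for the oxygen sensors and factors and for up to 10 called members with the largest differences between core and rim per species, and up to 5 in the other tests. Other members appear where a sentence on their role needs them. Up to 4 called genes of each other pathway list were to be named. Mouse positions are from GENCODE vM21. Of the 32 mouse members, 12 share exon bases with a gene on the opposite strand (Ankrd37, Bhlhe40, Bnip3, Car9, Fam162a, Gys1, Hif1a, Higd1a, Mxi1, Ndrg1, Plod2 and Slc2a1). Hif1a also shares exon bases with Gm49321 on its own strand, and Bnip3l and Vhl have named pseudogenes. Reads of all these members cannot be told apart with certainty from those of the other genes.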

Additional observations from a re-analysis of the deposited data

Results flagged for a closer look

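Among 207 groups of 5 libraries, 12 held 1 library whose gap to the nearest other passed Dixon's critical value, a rate near the 1 in 20 that chance gives. The library labelled lung from Rat3789 was such a case 4 times, with 336 CPM of mouse Plod2 (118 to 144 in the other lungs), 225 CPM of mouse Hif1a (193 to 200.5), 354 CPM of rat Hif1a (153 to 192) and 89.1 CPM of rat Epas1 (798 to 1888). In rims, Rat3867 was low in mouse Higd1a (26.6 CPM, against 42.7 to 50.6 in the others) and mouse Bnip3l (183, against 224 to 241). The rim of Rat3875 was high in mouse Hif1a (222 CPM, 197 to 201 in the others). The rim of Rat3869 was high in rat Gbe1 (66.8 CPM, 38 to 44 in the others) and rat Plod2 (395, 233 to 270.3 in the others). The rim of Rat3876 was low in rat Pfkfb4 (2.99 CPM, 5.05 to 5.74 in the others), its lung in rat Rora (1.24 CPM, 2.22 to 2.62) and its core in rat Hilpda (45.6 CPM, 83.9 to 107).

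The test of core minus rim between species passed its threshold for 13 members. Mouse minus rat was positive for Stc2 (1.57), P4ha2 (1.41), Plod1 (1.37), P4ha1 (0.78), Plod2 (0.70) and Ddit4 (0.64). It was negative for Hilpda (-1.51), Egln3 (-1.45), Slc2a1 (-0.80), Pdk1 (-0.65), Gys1 (-0.63), Bnip3 (-0.62) and Ero1l (-0.47).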

How the results depend on the processing

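Of the calls described, 7 of 16 for mouse core against rim, 19 of 25 for rat core against rim, 5 of 15 for mouse lung against rim, 9 of 20 for rat lung against rim and 10 of 13 for the species difference held in every alternative setting. Leaving out 1 rat at a time, 8 to 20 mouse and 22 to 24 rat members were called between core and rim, 6 to 20 mouse and 9 to 26 rat members between lung and rim, and 11 to 14 in the species difference. Over all genes these fits called 1272 to 2397 mouse and 3794 to 4734 rat genes between core and rim. Between lung and rim they called 1312 to 2831 mouse and 1509 to 4113 rat genes, and 2486 to 3451 genes in the species difference. Without the replicate block, 15 mouse and 23 rat members were called between core and rim, and 2630 and 5049 of all genes. With a replicate block on 4 rats, 25 mouse and 29 rat members were called between lung and rim, and 2436 and 3656 of all genes.

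No called member changed sign. Members that were not called did so in these cases. Leaving out 1 rat gave ranges of -0.083 to 0.030 for mouse Hif1a and -0.258 to 0.219 for rat Plod2 between core and rim. Between lung and rim they were -0.045 to 0.035 for mouse Hif1a, -0.371 to 0.045 for mouse Plod1, -0.158 to 0.044 for rat Pfkfb3, -0.419 to 0.028 for rat Plod2 and -0.032 to 0.094 for rat Mxi1. In the species difference they were -0.248 to 0.099 for Pfkfb3, -0.058 to 0.153 for Fam162a, -0.133 to 0.079 for Mxi1, -0.151 to 0.027 for Adm and -0.203 to 0.133 for Ndrg1. Total count scaling gave 0.042 for mouse Hif1a and 0.052 for rat Pfkfb3 between lung and rim, and -0.046 for Fam162a in the species difference. Without Rat3876 and Rat3877 together, mouse Ankrd37 was -0.019 between core and rim and Pfkfb3 0.024 in the species difference. The cause was not tested.

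Over all genes, leaving out Rat3876 and Rat3877 lowered the calls to 3351 of rat genes between core and rim (5092 with all rats) and to 2130 in the species difference (3489). Leaving out 1 rat lowered them to as few as 1272 mouse genes between core and rim (2585), 1312 mouse genes between lung and rim (2603) and 1509 rat genes between lung and rim (3065). Fewer samples enter these fits. In the species difference, total count scaling split all calls into 1645 higher and 1883 lower (1871 and 1618 on the authors' scale). Rat genes of the core had the fewest reads.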
